A study of Mus musculus with 10 samples.

Results

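The numbered Zfp genes are mouse genes whose symbol is Zfp followed by a number, a naming that gathers zinc finger proteins of many kinds. They were taken as every gene with such a symbol alone on its probe set, leaving out Zfp36 and Zfp42, and with a probe set above a log2 value of 4 on 2 or more of 10 arrays. This left 133 genes of 155, among 8599 genes kept by the same filter. Where a gene had several such probe sets, the one with the greatest average over the arrays was read. The choice used the level on the arrays but no comparison between groups.

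Most proteins of this naming carry arrays of C2H2 zinc fingers, each of which holds a zinc ion and reads a few bases of DNA. Many also have a KRAB domain, which recruits the corepressor Trim28 and with it histone methylation and DNA methylation at retroelements and imprinted regions. Others have no KRAB domain and act as activators, as RNA-binding proteins or as ubiquitin ligases, so the shared name is not a shared function.

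The study profiled mouse cells in reprogramming, in which the Yamanaka transcription factors turn fibroblasts into induced pluripotent stem cells (iPSC). Its title names RNA FACS, the sorting of cells by a labelled transcript. There were 5 groups of 2 arrays each. The first was the Sox2-positive fraction of secondary mouse embryonic fibroblasts (MEFs) after 32 days of factor expression, and the second was the Sox2-negative fraction of such cells. The third was the unsorted day 32 sample. The fourth was iPSC kept in 2i/serum, a medium with a pair of kinase inhibitors, and the fifth was iPSC cultured together with MEFs, so its RNA may include that of the MEFs. All groups shared standard mouse embryonic stem cell medium except where the labels say otherwise, and the labels name neither strain, clone nor the transgene. Nothing in the labels says that the 2 arrays of a group came from separate cultures, so the p-values rest on array-to-array spread that may be technical. With 2 against 2 arrays an exact two-sided permutation test cannot go below 0.33, and limma, which shares the spread over all 10 arrays and moderates it across genes, was used instead.

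The values are log2 expression. The arrays fell into 2 classes by the control probe set for 18S ribosomal RNA, which read 11.35 to 13.22 on the arrays of both sorted fractions and of iPSC with MEFs, and 5.25 to 6.55 on those of the day 32 sample and iPSC in 2i/serum. Actb read higher at its 3' than at its 5' end by 0.05 to 1.12 in the first class and by 2.7 to 3.88 in the second. Within the first class that gap was 1.12 and 1.08 on iPSC with MEFs, against 0.05 to 0.21 on the sorted fractions. The median over all genes was 6.53 and 6.48 on iPSC with MEFs, against 6.03 to 6.1 on the sorted fractions. The labels name 2 amplification kits without saying which sample had which. The comparison of iPSC in 2i/serum with iPSC with MEFs runs across the classes, where class and group cannot be told apart. The other 4 lie within a class, but those of a sorted fraction with iPSC with MEFs cross the differences within the first class. The part of these array differences in the results was not tested. Of 8 pluripotency markers 7 were called higher in the Sox2-positive than in the Sox2-negative fraction, with Pou5f1 as the exception. The mean of the 8 was 10.18 and 10.49 in Sox2-positive cells, against 5.37 and 5.82 in Sox2-negative cells. Sox2 itself is in both the count and the mean, at 9.46 and 10.45 against 4.45 and 4.13. The fractions were sorted by it, so its call followed from the sort. Although every group is labelled iPSC by cell type, the Sox2-negative fraction read 2.47 and 3.27 for the pluripotency marker Zfp42. Fabp4, a fatty acid carrier of fat cells and macrophages, read 5.43 and 5.14 in Sox2-positive cells, against 12.15 and 11.25 in Sox2-negative cells. The mean over 3 of 4 fat cell markers was 3.15 and 3.03 in Sox2-positive cells, against 7.08 and 6.73 in Sox2-negative cells, and that of 6 of 8 fibroblast markers was 2.74 and 2.81 in Sox2-positive cells, against 4.64 and 5.31 in Sox2-negative cells. Of these fibroblast genes only S100a4 was called between the fractions, lower in Sox2-positive cells. The part of the fat cell and fibroblast markers in the differences between the fractions was not tested.

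Between the fractions, 8 numbered Zfp genes were called higher and 5 lower in Sox2-positive cells by limma at an adjusted p under 0.05. That is 6.02% and 3.76% of the 133, beside 6.86% and 5.65% of all genes, so the family held no larger share of calls than the array as a whole. The genes called higher were Zfp936, Zfp982, Zfp418, Zfp292, Zfp57, Zfp110, Zfp740 and Zfp991, and those called lower were Zfp386, Zfp503, Zfp651, Zfp148 and Zfp790. At an unadjusted p under 0.05 there were 22 higher and 18 lower. The share of all genes at this cutoff was not counted, so no count at it, here or below, is read as a result. The median difference was 0.10 log2 units over the 133 genes and -0.02 over all genes, and single genes ran between -2.12 and 6.45. Since these are bulk samples, fewer cells of a type and less RNA per cell cannot be told apart in any of these differences.

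**Figure D1:**
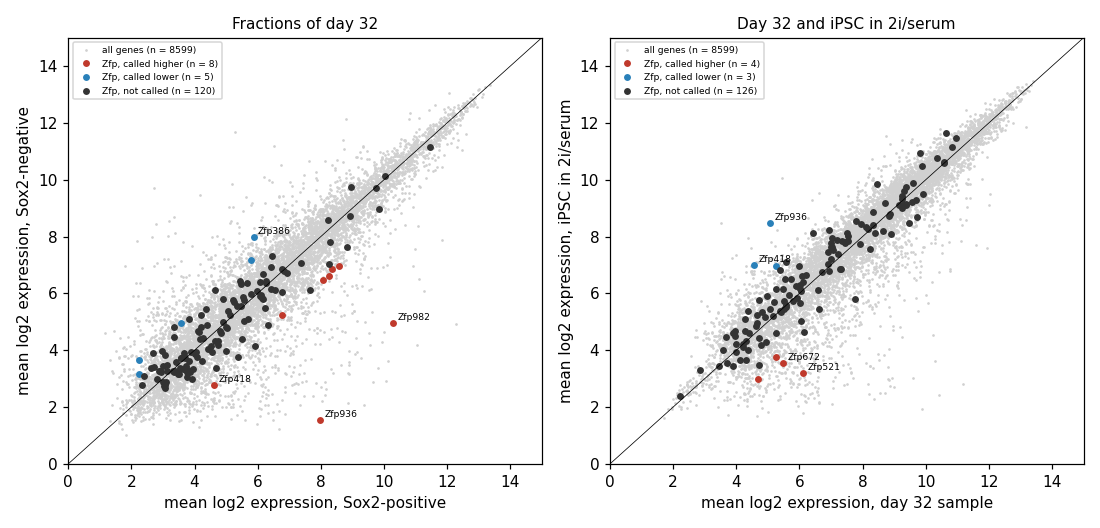
Mean log2 expression of all 8599 genes (grey) and of the 133 numbered Zfp genes (coloured by their limma call), in Sox2-positive (horizontal axis) against Sox2-negative cells (vertical axis) on the left, and in the day 32 sample against iPSC in 2i/serum on the right. Zfp936 and Zfp982 lie farthest from the diagonal among the Zfp genes on the left, and Zfp936 is the called fall on the right with the largest difference. Names are printed for called genes with the larger differences.

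Zfp936 had the largest difference. It read 7.66 and 8.31 in Sox2-positive cells, against 1.33 and 1.74 in Sox2-negative cells. The day 32 sample read 3.96 and 6.16, iPSC in 2i/serum 8.16 and 8.81, and iPSC with MEFs 9.34 and 9.32. The Sox2-negative arrays lay far below all the others, and the 2 day 32 arrays stood between them and the iPSC. The difference between the fractions was 6.45 ± 0.61 log2 units (SE, limma adjusted p = 0.000583). A group under log2 4 on both its arrays was set to 4 for the fold, which is then a lower bound, and for Zfp936 it was at least 15.8-fold.

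Zfp982, reported to favour the embryonic stem cell state in mouse, read 9.86 and 10.74 in Sox2-positive cells, against 5.06 and 4.83 in Sox2-negative cells. Its values were 10.08 and 11.22 in the day 32 sample, 11.46 and 11.81 in iPSC in 2i/serum, and 10.14 and 10.54 in iPSC with MEFs. The Sox2-negative fraction was again the single low group, and Sox2-positive cells overlapped iPSC with MEFs. The fractions differed by 5.36 ± 0.42 log2 units, or 40.9-fold (SE, limma adjusted p = 0.000406). Its probe set is of the kind whose probes can match other transcripts, so a related gene may add to the signal.

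Zfp418 read 4.16 and 5.07 in Sox2-positive cells, against 2.75 and 2.78 in Sox2-negative cells. It read 3.96 and 5.18 in the day 32 sample, 6.47 and 7.54 in iPSC in 2i/serum, and 7.95 and 7.20 in iPSC with MEFs. Here the Sox2-positive cells stood below both iPSC groups, and their rise over the Sox2-negative cells was 1.85 ± 0.52 log2 units, at least 1.53-fold (SE, limma adjusted p = 0.0487).

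The other genes called higher rose by 1.49 to 1.66 log2 units. Zfp57, a KRAB protein that keeps DNA methylation at imprinted regions, read 8.45 and 8.69 in Sox2-positive cells, against 6.52 and 7.41 in Sox2-negative cells, a 3.04-fold difference (limma adjusted p = 0.0195). Zfp110, an interactor of the neurotrophin receptor p75, read 7.68 and 8.46 in Sox2-positive cells, against 5.94 and 7.0 in Sox2-negative cells (3.03-fold, limma adjusted p = 0.0286). Zfp740 read 6.82 and 6.73 in Sox2-positive cells, against 5.65 and 4.82 in Sox2-negative cells (2.91-fold, limma adjusted p = 0.0163). In none of these did the arrays of the fractions overlap. Zfp292 read 8.65 and 7.88 in Sox2-positive cells, against 7.20 and 6.01 in Sox2-negative cells (3.16-fold, limma adjusted p = 0.0294). Zfp991 read 7.89 and 8.82 in Sox2-positive cells, against 6.75 and 6.99 in Sox2-negative cells (2.8-fold, limma adjusted p = 0.0332). For both of these, iPSC with MEFs reached down to the Sox2-negative range on the probe set used. They read 6.54 and 6.53 for Zfp292 and 6.71 and 7.48 for Zfp991. On a further probe set of each gene, given below, they did not reach down to it.

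Among the genes called lower, Zfp386 read 6.48 and 5.26 in Sox2-positive cells, against 8.89 and 7.08 in Sox2-negative cells (4.33-fold lower, limma adjusted p = 0.0419). Zfp651, a BTB zinc finger protein, read 3.81 and 3.32 in Sox2-positive cells, against 5.10 and 4.84 in Sox2-negative cells (at least 1.96-fold lower, limma adjusted p = 0.0155). Zfp148, which binds GC-rich promoters, read 5.56 and 6.05 in Sox2-positive cells, against 7.05 and 7.33 in Sox2-negative cells (2.61-fold lower, limma adjusted p = 0.0238). These 3 genes were low in Sox2-positive cells without overlap with the other fraction. Zfp503, a developmental regulator, read 2.81 and 1.69 in Sox2-positive cells, against 4.01 and 3.33 in Sox2-negative cells (limma adjusted p = 0.0426). Zfp790 read 2.18 and 2.29 in Sox2-positive cells, against 3.20 and 3.16 in Sox2-negative cells (limma adjusted p = 0.039). The means of both genes lay under 4 in both fractions, and no fold is given.

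Single arrays decided many of these calls. Zfp936 and Zfp982 kept theirs under all 13 alternatives, with limma adjusted p-values of 0.00022 to 0.00749 and 0.000104 to 0.00577. Without Sox2-positive array b, 4 genes were called, and Zfp418, Zfp57, Zfp110, Zfp740, Zfp991, Zfp386, Zfp503, Zfp651 and Zfp790 lost their calls (limma adjusted p 0.0612 to 0.223). Without Sox2-positive array a, Zfp292, Zfp148 and Zfp790 lost theirs (0.0823 to 0.107). Without Sox2-negative array a, Zfp418, Zfp57, Zfp110, Zfp991, Zfp386, Zfp503, Zfp651 and Zfp790 did (0.0562 to 0.165). Without Sox2-negative array b, Zfp418, Zfp292, Zfp740, Zfp991, Zfp148 and Zfp790 did (0.0529 to 0.114). With the 4 compared arrays alone only Zfp936 and Zfp982 were called. The difference of Zfp386 ran between -1.21 without Sox2-negative array a and -3.02 without array b, and that of Zfp292 between 2.25 and 1.06 in the same order.

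Other probe sets of a gene also mattered. With the mean of the kept probe sets, Zfp790 came to -0.14 (limma adjusted p = 0.709), its second probe set reading 0.66 higher in Sox2-positive cells, and Zfp148 came to -0.8 (0.118), with one of its other probe sets at 0.01. Zfp386 came to -1.44 and Zfp991 to 2.29 and both kept their calls.

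To ask which genes went with Sox2-positive cells and iPSC, those were counted whose arrays of Sox2-positive cells, iPSC in 2i/serum and iPSC with MEFs all lay above both Sox2-negative arrays. There were 25, or 18.8% of the 133, beside 20% of all genes. Those also called higher in Sox2-positive than in Sox2-negative cells were 6, or 4.51%, beside 6.11% of all genes: Zfp936, Zfp982, Zfp418, Zfp57, Zfp110 and Zfp740. The reverse order held for 4 genes, or 3.01%, beside 5.28% of all genes, namely Zfp672, Zfp651, Zfp398 and Zfp386. Of these, Zfp651 and Zfp386 were also called, 1.5% beside 2.62% of all genes. The Zfp genes therefore showed the pattern at a share near that of the array, and the iPSC in 2i/serum enter it across the 18S classes. The pattern was read on the probe set used for each gene. Further probe sets of Zfp292, Zfp975 and Zfp991 also met it with a call, as given below.

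The other 19 genes of the 25 were not called between the fractions, with differences of 0.23 for Zfp932 to 1.77 for Zfp423. Zfp37 read 5.08 and 5.70 in Sox2-positive cells, against 2.87 and 4.68 in Sox2-negative cells. Zfp975 read 7.05 and 8.27 in Sox2-positive cells, against 6.68 and 5.53 in Sox2-negative cells. In both, the arrays within a fraction were widely spread. Zfp37 was chosen here after its values were seen, and the probe set of Zfp975, like that of Zfp982, can match other transcripts. The count of 6 became 2 without Sox2-positive array b and 10 without Sox2-positive array a.

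**Figure D2:**
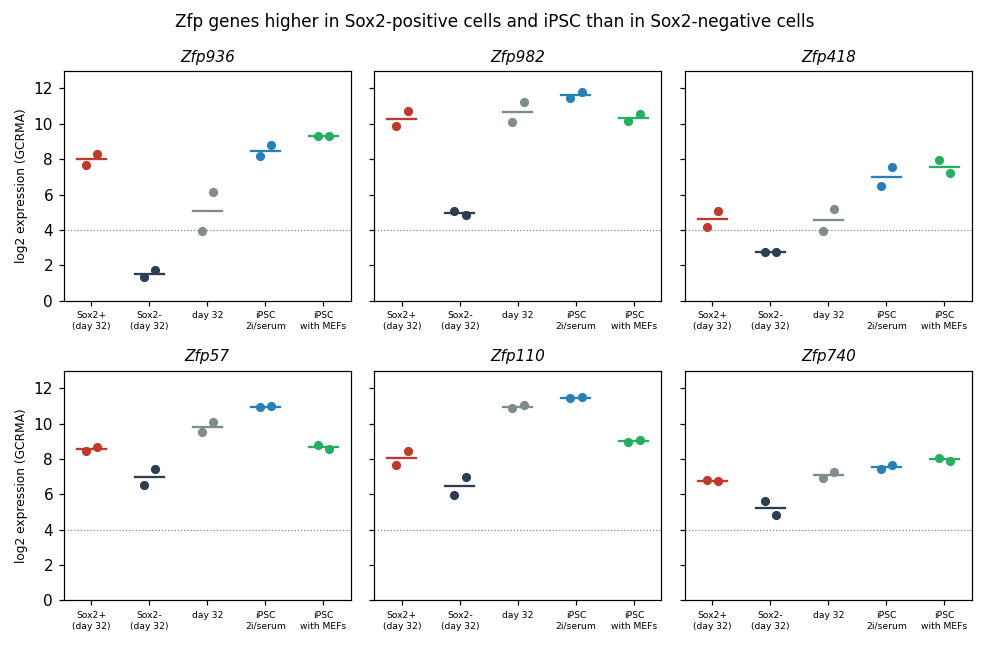
Log2 expression of the 6 numbered Zfp genes that were higher in Sox2-positive cells and in both iPSC groups than in Sox2-negative cells and called between the fractions. Each point is an array, each bar the mean of 2 arrays, and the dotted line the filter at log2 4. The Sox2-negative arrays are the lowest in every panel, and Zfp936 falls to 1.33 and 1.74 there.

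The promoters of the 3 genes with the largest rises in Sox2-positive cells, and of Zfp651 with the reverse order, are shown because these genes mark both ends of the pattern. They run from 250 bases before to 50 after the start in RefSeq on GRCm38.p6, which held a promoter for 106 of the 133 genes. Where several promoters were listed for a gene the first was taken, as for Zfp982 with 3. Capitals mark matches, on either strand, of the octamer ATGCAAAT, of ACAATG as found in Sox sites, and of the GC box GGGCGG. The 4 lie on the plus strand, Zfp936 at chr7:43177340-43177639, Zfp982 at chr4:147442864-147443163, Zfp418 at chr7:7171103-7171402 and Zfp651 at chr9:121759783-121760082.
Zfp936: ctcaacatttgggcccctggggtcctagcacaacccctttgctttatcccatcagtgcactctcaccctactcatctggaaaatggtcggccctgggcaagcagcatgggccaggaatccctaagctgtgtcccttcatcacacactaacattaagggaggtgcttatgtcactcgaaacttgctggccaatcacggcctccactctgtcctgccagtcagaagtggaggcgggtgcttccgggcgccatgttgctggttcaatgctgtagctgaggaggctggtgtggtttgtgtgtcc
Zfp982: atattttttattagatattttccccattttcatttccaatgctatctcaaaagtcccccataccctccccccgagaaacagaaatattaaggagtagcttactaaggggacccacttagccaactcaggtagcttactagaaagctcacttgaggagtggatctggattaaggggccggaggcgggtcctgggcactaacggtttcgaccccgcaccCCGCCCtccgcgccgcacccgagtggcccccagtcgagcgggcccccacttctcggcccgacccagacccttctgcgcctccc
Zfp418: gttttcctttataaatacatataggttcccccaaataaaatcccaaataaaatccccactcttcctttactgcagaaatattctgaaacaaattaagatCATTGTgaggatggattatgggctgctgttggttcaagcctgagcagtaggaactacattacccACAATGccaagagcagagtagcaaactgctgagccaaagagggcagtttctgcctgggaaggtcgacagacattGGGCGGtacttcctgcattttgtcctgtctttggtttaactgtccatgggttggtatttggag
Zfp651: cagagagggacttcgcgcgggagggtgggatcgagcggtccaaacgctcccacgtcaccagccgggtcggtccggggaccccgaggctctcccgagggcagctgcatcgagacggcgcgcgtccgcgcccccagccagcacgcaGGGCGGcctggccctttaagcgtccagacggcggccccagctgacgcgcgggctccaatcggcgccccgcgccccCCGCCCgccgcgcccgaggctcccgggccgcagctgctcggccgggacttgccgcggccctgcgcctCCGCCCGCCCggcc

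The Zfp936 window held none of the 3 motifs and 6 CpG. The Zfp982 window held 1 GC box and 16 CpG. The Zfp418 window held 2 matches of ACAATG, 1 GC box and 2 CpG, while that of Zfp651 held 4 GC boxes, some of them overlapping, and 46 CpG. Over the family, ACAATG was in 8 of 106 promoters (7.55%), beside 12.8% of all 27025. The octamer was in 4 (3.77%), beside 1.75%, and the GC box in 58 (54.7%), beside 35.9%. The median number of CpG was 16 over the family and 7 over all promoters. The promoters of all genes include those of genes not kept by the filter. The shares therefore do not set the family apart from the other genes kept. These are descriptions of the letters in these windows.

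Over the 10 arrays, the genes whose profile was most like that of Zfp936 were Zfp418 (Pearson r = 0.886), Zfp553 (0.884), Zfp740 (0.88), Zfp975 (0.87), Zfp982 (0.851), Zfp296 (0.838), Zfp281 (0.787) and Zfp84 (0.781). Zfp651 had r = -0.946 and Zfp386 r = -0.683. The points share their arrays, their groups and the 18S class, so these values only describe the profiles. In RefSeq, Zfp975 lies near Zfp936 on chromosome 7 and Zfp991 near Zfp982 on chromosome 4, pairs that were looked up after their values were seen.

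Sox2-positive cells were also set against iPSC with MEFs, within the same 18S class but across its differences in the Actb ends and the gene median. Here 12 numbered Zfp genes were called higher and 30 lower, 9.02% and 22.6% of the 133, beside 6.13% and 29.8% of all genes. The median difference was -0.31 log2 units over the family and -0.46 over all genes. Zfp936 was not among the calls, at 7.66 and 8.31 in Sox2-positive cells, against 9.34 and 9.32 in iPSC with MEFs.

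Zfp423, a factor of fat cell precursors and BMP signalling, read 4.85 and 7.0 in Sox2-positive cells, against 9.85 and 9.35 in iPSC with MEFs (12.8-fold lower, limma adjusted p = 0.00449). Zfp566 read 3.16 and 4.56 in Sox2-positive cells, against 7.33 and 6.74 in iPSC with MEFs (9.03-fold lower, limma adjusted p = 0.00213). Zfp296, known to aid reprogramming, read 4.40 and 4.97 in Sox2-positive cells, against 6.65 and 6.96 in iPSC with MEFs (4.35-fold lower, limma adjusted p = 0.00602). All 3 were lower in the sorted cells, and so were Zfp418 (7.78-fold), Zfp553 (3.99-fold) and Zfp64 (3.47-fold). Beside the fall of Zfp423, the fibroblast markers averaged 2.74 and 2.81 in Sox2-positive cells, against 5.44 and 5.16 in iPSC with MEFs over 6 of 8 listed genes, with Thy1 and Postn under the filter. Their part in the result was not tested.

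The largest rise over iPSC with MEFs was that of Zfp942, at 6.76 and 5.70 in Sox2-positive cells, against 4.44 and 3.99 in iPSC with MEFs (4.04-fold, limma adjusted p = 0.00708). Zfp292 rose 3.32-fold (limma adjusted p = 0.011), Zfp445 at least 2.92-fold (0.019), Zfp991 2.39-fold (0.0274) and Zfp81 at least 1.18-fold (0.00665). Zfp758 was called at 3.95 and 3.19 in Sox2-positive cells, against 2.63 and 1.54 in iPSC with MEFs, levels under 4 for which no fold is given. The calls of Zfp423, Zfp566, Zfp418, Zfp296 and Zfp64 held under all 13 alternatives. For Zfp64, though, the difference was -1.795 log2 units on the probe set used and -0.015 on its other kept probe set. The count of 42 was 17 without iPSC with MEFs array a, 14 without its array b and 21 without Sox2-positive array a. The calls of Zfp942 (0.0552) and Zfp81 (0.0543) were lost without array b of iPSC with MEFs, and those of Zfp292, Zfp445, Zfp758 and Zfp991 without 2 or more single arrays in turn (limma adjusted p 0.0569 to 0.198). With the mean of the kept probe sets the rise of Zfp292 was 0.51 log2 units (limma adjusted p = 0.148), that of Zfp445 1.01 (0.0587) and that of Zfp991 0.85 (0.174), while the difference of Zfp64 was -0.9 and that of Zfp553 -1.38. The difference of Zfp423 was -2.6 without Sox2-positive array a and -4.75 without array b, and that of Zfp566 was -2.48 and -3.88 in the same order. Quantile normalization left 11 higher and 17 lower, with Zfp423 at -3.01.

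Sox2-negative cells had 13 numbered Zfp genes called higher and 38 lower than iPSC with MEFs, 9.77% and 28.6% of the 133, beside 12% and 35.6% of all genes. The median difference was -0.26 log2 units over the family and -0.51 over all genes. This comparison shares the Sox2-negative arrays with that of the fractions, so the values of both are given side by side and not as separate support. Zfp936 was at least 40.2-fold lower in Sox2-negative cells than in iPSC with MEFs (limma adjusted p = 9.85e-05), and Zfp982 was 42.1-fold lower (9.97e-05). Zfp423 read 4.69 and 3.62 in Sox2-negative cells, against 9.85 and 9.35 in iPSC with MEFs (43.6-fold lower, limma adjusted p = 0.000505). Zfp418 was at least 11.9-fold lower, Zfp566 at least 8.2-fold and Zfp296 at least 6.99-fold. Zfp553 (9.03-fold), Zfp219 (7.14-fold), Zfp740 (6.73-fold) and Zfp110 (5.88-fold) were lower too. Beside these values, Fabp4 read 12.15 and 11.25 in Sox2-negative cells, against 2.16 and 2.05 in iPSC with MEFs. The mean over 3 of 4 fat cell markers was 7.08 and 6.73 in Sox2-negative cells, against 1.86 and 1.9 in iPSC with MEFs, and that over 6 of 8 fibroblast markers was 4.64 and 5.31 in Sox2-negative cells, against 5.44 and 5.16 in iPSC with MEFs. The fibroblast genes did not move together. In Sox2-negative cells Col1a1 (-3.17 log2 units) and Col1a2 (-3.42) were called lower and S100a4 (4.17) higher. Of the fat cell genes, Fabp4 and Cd36 were called higher there and Adipoq was not called (limma adjusted p = 0.223). The part of these markers in the result was not tested.

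Of the rises in Sox2-negative cells over iPSC with MEFs, that of Zfp362 was the largest, at 6.61 and 5.61 in Sox2-negative cells, against 3.84 and 3.11 in iPSC with MEFs (at least 4.32-fold, limma adjusted p = 0.0066). Zfp445 rose at least 3.63-fold (0.00625), Zfp651 at least 1.96-fold (0.00216) and Zfp943 at least 1.75-fold (0.00732). Zfp672 (limma adjusted p = 0.00167) and Zfp758 were called too, on levels too low for a fold. The count of 51 was 31 without array a of iPSC with MEFs and 33 without array b. Zfp943 lost its call without array a (0.0511) and Zfp362 without array b (0.0552), as did Zfp758 there (0.117) and without Sox2-negative array a (0.0746). Zfp445 rose by 1.17 log2 units without Sox2-negative array a and by 2.77 without array b. Quantile normalization took Zfp982 to -4.7, Zfp553 to -2.22 and Zfp57 to -1.06, with their calls kept, and the mean of the probe sets took Zfp553 to -2.42.

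**Figure D3:**
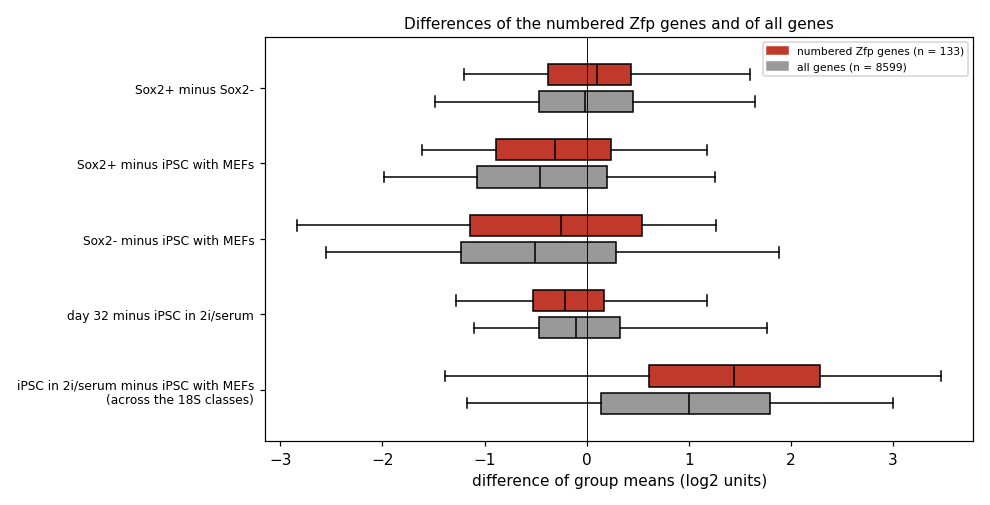
Differences of group means in log2 units (horizontal axis) for the 133 numbered Zfp genes (red) and all 8599 genes (grey) in the 5 comparisons (vertical axis). Boxes span the quartiles with the median, whiskers the central 90%. The medians of the Zfp genes lie close to those of all genes within the 18S classes, and at 1.45 against 1.01 in the comparison across them.

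The day 32 sample was compared with iPSC in 2i/serum, both of the low 18S class. Here 4 numbered Zfp genes were called higher and 3 lower, 3.01% and 2.26% of the 133, beside 5.23% and 2.5% of all genes. The median difference was -0.22 log2 units over the family and -0.11 over all genes. Zfp521, a factor of blood and neural precursors, read 6.49 and 5.75 in the day 32 sample, against 3.56 and 2.83 in iPSC in 2i/serum (at least 4.35-fold higher, limma adjusted p = 0.0024). It lay under 4 on all arrays of the other groups, so it passed the filter only through the group in which it was high. Zfp672 read 6.04 and 4.94 in the day 32 sample, against 3.57 and 3.56 in iPSC in 2i/serum (at least 2.81-fold, limma adjusted p = 0.0171). Zfp503 (at least 1.61-fold, 0.0319) and Zfp54 (at least 2.41-fold, 0.0243) were called as well. All 4 of these genes, and Zfp524, Zfp703 and Zfp768, would have failed the filter without the day 32 arrays, so a high level there was a condition of their being counted and nothing is read from the count of rises.

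Zfp936 was 10.7-fold lower in the day 32 sample than in iPSC in 2i/serum (limma adjusted p = 0.0135), Zfp418 was 5.41-fold lower (0.0257) and Zfp87 3.25-fold (0.0285). Zfp982 was not called, at 10.08 and 11.22 in the day 32 sample, against 11.46 and 11.81 in iPSC in 2i/serum. Beside these values, Fabp4 read 11.68 and 10.68 in the day 32 sample, against 1.71 and 3.92 in iPSC in 2i/serum. The mean over 3 of 4 fat cell markers was 7.14 and 6.67 in the day 32 sample, against 2.35 and 3.24 in iPSC in 2i/serum, and that over 6 of 8 fibroblast markers 6.06 and 6.30 in the day 32 sample, against 3.72 and 5.28 in iPSC in 2i/serum. Of the fat cell genes, Fabp4 and Cd36 were called higher in the day 32 sample and Adipoq was not called (limma adjusted p = 0.0571). Of the fibroblast genes only S100a4 was called, higher in the day 32 sample. Acta2 was widely spread in iPSC in 2i/serum, at 2.71 and 8.03. The part of these markers in the result was not tested. The call of Zfp521 held under all 13 alternatives. The count of 7 was 4 without array a of iPSC in 2i/serum, 1 without its array b and 2 without day 32 array a. Zfp936 lost its call without array b of iPSC in 2i/serum (limma adjusted p = 0.093), and its difference was -2.32 without day 32 array a and -4.52 without array b. That of Zfp418 was -1.83 and -3.04 in the same order. Zfp418 lost its own there (0.176) and without day 32 array a (0.208), and Zfp672, Zfp503, Zfp54 and Zfp87 lost theirs without 3 or more single arrays in turn (0.0616 to 0.218). Quantile normalization left 2 higher and 3 lower.

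**Figure D4:**
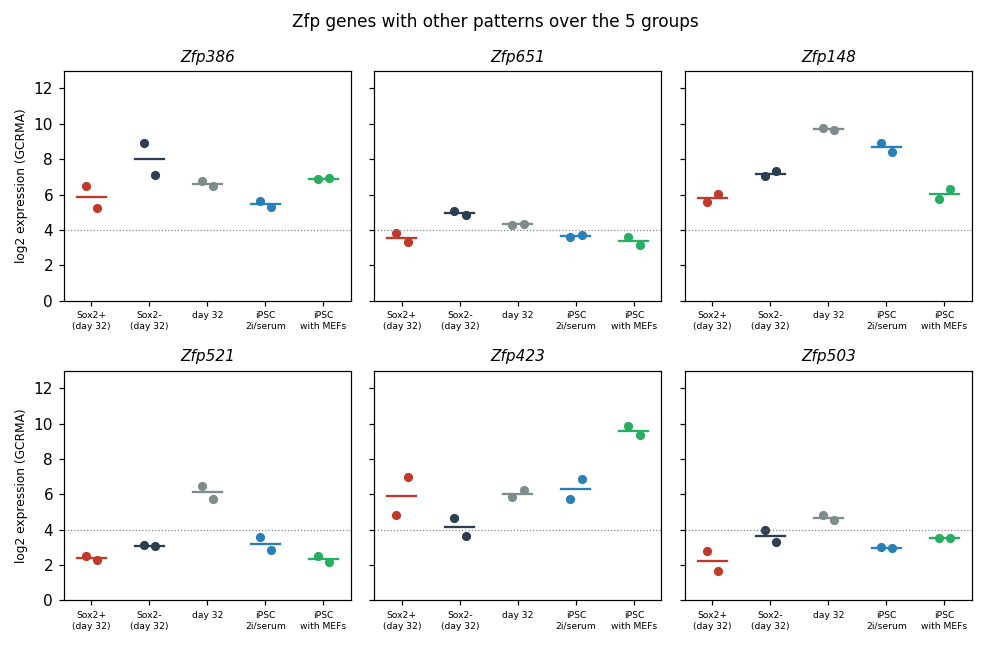
Log2 expression of 6 numbered Zfp genes with other orders of the groups. Each point is an array, each bar the mean of 2 arrays, and the dotted line the filter at log2 4. Zfp386 and Zfp651 are highest in Sox2-negative cells, Zfp521 is above 4 in the day 32 sample alone, and Zfp423 is highest in iPSC with MEFs.

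Comparing iPSC in 2i/serum with iPSC with MEFs gave 89 numbered Zfp genes called higher and 11 lower, 66.9% and 8.27% of the 133, beside 52.9% and 8.15% of all genes. With each array centred on its median the split was 36 higher and 25 lower, and with quantile normalization 38 and 21. Centring took the median difference over all genes to -0.01, against 1.01 as deposited, and that of the family to 0.43, against 1.45 as deposited. Over the family, 79 of 133 genes (59.4%) lay higher on all 4 arrays of the low 18S class than on all 6 of the other, beside 48.1% of all genes, so culture and class cannot be told apart here. Zfp113, Zfp286, Zfp40, Zfp689, Zfp707 and Zfp759 would have failed the filter without the arrays of iPSC in 2i/serum. For these genes a high level there was a condition of their being counted.

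Zfp617 read 10.78 and 10.40 in iPSC in 2i/serum, against 5.34 and 5.53 in iPSC with MEFs, and 10.72 and 10.42 in the day 32 sample of the same class. It read 5.85 and 6.48 in Sox2-positive and 6.0 and 7.35 in Sox2-negative cells. Zfp942, Zfp959, Zfp930, Zfp958 and Zfp704 rose between 3.67 and 4.58 log2 units in iPSC in 2i/serum, but Zfp704 by 1.91 with the mean of its probe sets. With quantile normalization the rises of these genes ran from 2.45 for Zfp704 to 3.39 for Zfp942. That of Zfp617 was 4.18, against 5.16 as deposited. Zfp959 rose by 4.92 without array a of iPSC with MEFs and by 3.51 without array b. Zfp369, a relative of Zfp110, went the other way, at 2.35 and 2.46 in iPSC in 2i/serum, against 7.18 and 7.45 in iPSC with MEFs (at least 9.95-fold lower, limma adjusted p = 2.3e-05). It read 2.07 and 2.38 in the day 32 sample and between 5.85 and 6.66 in the sorted fractions. Zfp423 (9.88-fold, or -2.72 log2 units without array a of iPSC in 2i/serum), Zfp318 (4.52-fold, lost with the mean of its probe sets, limma adjusted p = 0.502), Zfp397 (at least 2.29-fold) and Zfp109 (at least 2.18-fold) were called lower in iPSC in 2i/serum. Zfp91, a ubiquitin ligase, was called 3.85-fold lower, but with the mean of its probe sets it turned to 0.41 log2 units (limma adjusted p = 0.173). A stretch of 13 Zfp genes on chromosome 17, from Zfp160 to Zfp213, had 13 of 13 called higher in iPSC in 2i/serum, with a median of 2.66 log2 units. Zfp40 in this stretch would have failed the filter without those arrays, so its place in the count depended on a high level there. In this comparison 52.9% of all genes were called higher, and centring took the family's rises to 36. Among other stretches of Zfp genes, that from Zfp235 to Zfp574 had 4 of 8 called higher and that from Zfp930 to Zfp869 had 3 of 3. Between the fractions 0 of the 13 were called by limma, and 1 was higher and 2 lower at an unadjusted p under 0.05.

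The genes with a known role were listed by role. Of 10 genes that act on imprints and retroelements, 4 were kept: Zfp57, Zfp445, Zfp568 and Zfp932. The rest of this list had no probe set with their symbol alone, so they were not read. Between the fractions 1 of 4 was called higher (Zfp57) and 0 lower by limma, beside 6.86% and 5.65% of all genes. The median was 0.72 log2 units, and 2 were higher and 0 lower at an unadjusted p under 0.05. Zfp445, which acts on imprints beside Zfp57, read 5.55 and 5.54 in Sox2-positive cells, against 6.66 and 5.06 in Sox2-negative cells. Its difference was -0.32 with both arrays, -1.12 without Sox2-negative array b (limma adjusted p = 0.0451) and 0.48 without array a. Zfp568, which represses a placental Igf2 transcript, read 8.55 and 7.96 in Sox2-positive cells, against 6.53 and 7.55 in Sox2-negative cells (limma adjusted p = 0.0678, or 0.0295 without Sox2-negative array b and 0.0297 with the mean of its probe sets). Zfp932, a repressor of endogenous retroviruses, read 4.72 and 4.97 in Sox2-positive cells, against 4.64 and 4.59 in Sox2-negative cells. In Sox2-negative cells against iPSC with MEFs, 3 were called lower and 1 higher, beside 35.6% and 12% of all genes. The gene called higher was Zfp445. The call of Zfp568 there was lost without Sox2-negative array a (0.0574) or iPSC with MEFs array a (0.0735), and that of Zfp932 without the second of these (0.0786). Quantile normalization took Zfp568 to -0.88 there (0.105).

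Of 9 genes tied to the stem cell state, 5 were kept. Zfp143, Zfp217, Zfp706 and Zfp462 had no probe set with their symbol alone, so they were not read. Between the fractions 0 of the 5 kept genes were called by limma, beside 6.86% of all genes called higher and 5.65% called lower. The median of the 5 was 1.13 log2 units, and 4 of 5 were higher and 0 lower at an unadjusted p under 0.05. Zfp281, a regulator of Nanog, read 9.78 and 9.89 in Sox2-positive cells, against 8.81 and 9.17 in Sox2-negative cells (limma adjusted p = 0.0502). It was called under 4 alternatives, among them median centring (0.0478) and no filter (0.0336). Zfp296 read 4.40 and 4.97 in Sox2-positive cells, against 3.64 and 3.12 in Sox2-negative cells (limma adjusted p = 0.075, or 0.0454 with quantile normalization). Zfp219, a partner of Oct4 and Nanog, read 5.21 and 5.82 in Sox2-positive cells, against 3.86 and 4.91 in Sox2-negative cells (0.158). The arrays of the fractions did not overlap for Zfp296 or Zfp219. Zfp553 read 8.33 and 9.32 in Sox2-positive cells, against 7.50 and 7.79 in Sox2-negative cells (0.0783). Zfp207, a mitotic spindle protein, read 8.78 and 9.08 in Sox2-positive cells, against 8.82 and 8.64 in Sox2-negative cells (0.638). Zfp553 was called without Sox2-positive array a (0.0319). Against iPSC with MEFs, 3 of the 5 were called lower in Sox2-positive cells, beside 29.8% of all genes. In Sox2-negative cells 4 of the 5 were called lower, beside 35.6% of all genes. Of these, Zfp219 lost its call in Sox2-positive cells without Sox2-positive array a (0.124) or iPSC with MEFs array b (0.164). Quantile normalization removed the calls of Zfp219 (0.0849) and Zfp553 (0.0761) in Sox2-positive cells and of Zfp281 in Sox2-negative cells (0.0603), leaving 1 and 3.

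Of 7 mesenchymal, fat and neural factors, 4 were kept, and Zfp467 lay under the filter. Zfp516 and Zfp536 had no probe set with their symbol alone. Zfp503 was called lower in Sox2-positive cells and 0 were called higher by limma, beside 5.65% and 6.86% of all genes. At an unadjusted p under 0.05, 1 was higher and 1 lower, and the median was -0.54 log2 units. Zfp423 read 4.85 and 7.0 in Sox2-positive cells, against 4.69 and 3.62 in Sox2-negative cells, with 1 array of the first well above the rest (limma adjusted p = 0.123, or 0.0213 without Sox2-positive array a). Zfp703 read 3.16 and 2.62 in Sox2-positive cells, against 3.54 and 2.99 in Sox2-negative cells. In the day 32 sample against iPSC in 2i/serum, 2 of 4 were called higher, beside 5.23% of all genes. These were Zfp521 and Zfp503, both of which passed the filter through the day 32 arrays.

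The corepressors that KRAB zinc finger proteins work with were read beside them, 14 of 15 listed. Between the fractions 2 were called higher and 0 lower by limma, beside 6.86% and 5.65% of all genes, with a median of 0.49 log2 units, and 5 higher and 0 lower at an unadjusted p under 0.05. Dnmt3b, a DNA methyltransferase, read 8.23 and 9.23 in Sox2-positive cells, against 4.40 and 6.07 in Sox2-negative cells (limma adjusted p = 0.00621). Morc3 read 9.25 and 10.23 in Sox2-positive cells, against 8.32 and 8.69 in Sox2-negative cells (limma adjusted p = 0.0487). Trim28, the KRAB corepressor itself, read 11.1 and 11.1 in Sox2-positive cells, against 9.22 and 10.35 in Sox2-negative cells (limma adjusted p = 0.0748). It read 10.48 and 10.98 in the day 32 sample, 11.18 and 11.55 in iPSC in 2i/serum, and 12.97 and 12.11 in iPSC with MEFs. In Sox2-negative cells against iPSC with MEFs, 10 of the 14 were called lower and 0 higher by limma (11 lower and 0 higher at an unadjusted p under 0.05), beside 35.6% and 12% of all genes. In Sox2-positive cells 6 were called lower and 1 higher, beside 29.8% and 6.13% of all genes, the last being Atf7ip, a partner of the histone methyltransferase Setdb1.

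Levels spread widely within the family. The highest means over the arrays were those of Zfp622, a ribosome assembly factor, at 11.4, Zfp281 at 10.09, Zfp106, an RNA-binding protein, at 9.75, Zfp91 at 9.62 and Zfp982 at 9.57, while Zfp524 had the lowest at 3.15. These are probe set intensities, which do not rank genes against each other. The number of the 133 above log2 4 was 84 and 86 in Sox2-positive cells, 80 and 82 in Sox2-negative cells, 118 and 124 in the day 32 sample, 121 and 116 in iPSC in 2i/serum, and 88 and 83 in iPSC with MEFs. The counts differed by 18S class more than by fraction. On all 10 arrays 54 genes were above 4, and 8 passed on exactly 2, among them Zfp40 and Zfp703. Just outside the filter lay Zfp865, with a highest value of 4.55, Zfp189 with 4.34 and Zfp202 with 4.22, of 22 genes left out. The median absolute difference between the 2 arrays of a group over the family was 0.47 in Sox2-positive cells, 0.49 in Sox2-negative cells, 0.34 in the day 32 sample, 0.27 in iPSC in 2i/serum and 0.29 in iPSC with MEFs.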

How the data were processed

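RNA of 10 samples was hybridised to Affymetrix arrays. Per the labels, RNA was extracted with Trizol and amplified with NuGEN Ovation reagents. The deposited values are log2 expression, made by the authors with GCRMA and the affy package per the submitters' processing notes; the sources used here state no version of either. The number of arrays limits the precision.

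Of 22690 probe sets, 64 were controls. Probe sets with 1 gene symbol and above log2 4 on 2 or more arrays were kept, each gene by its highest mean. Of the 133 Zfp genes 36 had more than 1 kept probe set, and 16 Zfp probe sets with several symbols were left out. One limma 3.58.1 model in R 4.3.3 covered all 10 arrays, with group means and no covariates. Adjusted p-values are Benjamini-Hochberg over 8599 genes, called under 0.05, and the fit was tested on simulated data. Alternatives were other filters, probe set means, normalizations, array weights, a variance trend, the compared arrays alone, the replicate letter as a block, and leaving out arrays. Named were Zfp936, the called genes without overlap with the largest differences, the pattern genes, those most like Zfp936 and the role and corepressor lists. A few others were named after their values were seen. The members and lists were chosen with earlier results of these data known. Figures were drawn with matplotlib 3.10.9.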

Additional observations from a re-analysis of the deposited data

Results flagged for a closer look

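Of the Zfp genes with more than 1 kept probe set, 3 had a second probe set that the comparisons did not use and that was called higher in Sox2-positive than in Sox2-negative cells. That of Zfp991 read 7.32 and 8.04 in Sox2-positive cells, against 4.12 and 5.06 in Sox2-negative cells, a difference of 3.09 log2 units (limma adjusted p = 0.0178). That of Zfp975 read 7.09 and 8.90 in Sox2-positive cells, against 5.89 and 5.59 in Sox2-negative cells, a difference of 2.25 (limma adjusted p = 0.0362), while the probe set used was not called. That of Zfp292 read 6.78 and 6.80 in Sox2-positive cells, against 5.41 and 4.74 in Sox2-negative cells, a difference of 1.72 (limma adjusted p = 0.00727). On these 3 probe sets all arrays of both iPSC groups also lay above both Sox2-negative arrays. There iPSC with MEFs read 6.86 and 7.63 for Zfp991, 7.55 and 8.28 for Zfp975, and 6.42 and 6.24 for Zfp292. Which genes went with Sox2-positive cells and iPSC thus depended on the probe set. Of 52 further kept probe sets of the family, 6 were called and 13 had the opposite sign of the one used. The other 3 called were lower in Sox2-positive cells, with differences of -1.01 for Zfp148 (limma adjusted p = 0.0455), -1.24 for Zfp329 (0.0405) and -1.3 for Zfp830 (0.0366).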

How the results depend on the processing

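Between the fractions 13 genes were called, against 2 with the compared arrays alone, 3 with array weights and 4 to 16 with single arrays left out. The 42 calls of Sox2-positive cells against iPSC with MEFs became 14 to 32, and the 51 of Sox2-negative cells became 31 to 50, with single arrays left out. The 7 calls of the day 32 sample against iPSC in 2i/serum became 4 with a filter at log2 5, 2 with the compared arrays alone, 17 with array weights and 1 to 9 with single arrays left out. The 100 calls of iPSC in 2i/serum against iPSC with MEFs became 59 with quantile normalization and 61 with median centring. The 6 genes with Sox2-positive cells and iPSC, whose alternatives were chosen after seeing the data, became 3 with array weights and 2 to 10 with single arrays left out. The cause was not tested.

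With the replicate letter as a block, the calls were 16, 42, 54, 10 and 103 in the order above, and 6 for the pattern. Over all genes the a-minus-b differences of the compared groups had correlations between -0.036 and 0.048. Such values cannot tell whether arrays with the same letter came from the same culture, so a pairing was not excluded.

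Signs turned as follows. With the mean of probe sets, Zfp207 went to -0.15 in the day 32 sample against iPSC in 2i/serum and to -0.17 in iPSC in 2i/serum against iPSC with MEFs, where Zfp91 went to 0.41. With quantile normalization, Sox2-positive cells against iPSC with MEFs gave 0.54 for Zfp57, 0.35 for Zfp568, 0.13 for Zfp281 and 0.56 for Zfp207, Sox2-negative cells gave 0.39 for Zfp207, and iPSC in 2i/serum gave -1.0 for Zfp296, -0.1 for Zfp219 and -0.22 for Zfp207. With median centring, iPSC in 2i/serum against iPSC with MEFs gave -0.72 for Zfp281, -0.99 for Zfp296, -0.12 for Zfp219, -0.54 for Zfp207 and -0.17 for Zfp521. With single arrays left out, Zfp423 ran from -0.85 to 0.32 in the day 32 sample against iPSC in 2i/serum, and Zfp296 from -0.32 to 0.39 in iPSC in 2i/serum against iPSC with MEFs. In Sox2-positive cells against iPSC with MEFs, Zfp57 ran from -0.23 to 0.03, Zfp207 from -0.25 to 0.05 and Zfp521 from -0.1 to 0.19. Zfp445 ran from -1.12 to 0.48 between the fractions, and Zfp503 from -0.2 to 0.48 in Sox2-negative cells against iPSC with MEFs. Over the named genes, 27 values turned sign, of which 1 (Zfp91) also lost a call and 1 (Zfp281, median centring) gained one. Of the others, 133 lost a call, 41 gained one and 1226 did neither.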
